A study of Mus musculus with 6 samples.

Results

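The heat shock chaperones described here are 10 genes: the transcription factor gene Hsf1, the HSP70 genes Hspa1a, Hspa1b and Hspa8, the HSP110 gene Hsph1, the J-domain gene Dnajb1, the HSP90 genes Hsp90aa1 and Hsp90ab1, the mitochondrial chaperonin gene Hspd1 and the small heat shock protein gene Hspb1. They were taken by name from a table of 34745 genes, and all 10 were present and had enough counts to be tested. RNA came from 6 tumours grown by injecting cells labelled B16F10, a line derived from a mouse melanoma, under the skin of the right flank of C57BL/6J mice. The mice of 3 tumours were fed a normal diet (ND) and those of the other 3 a diet high in cholesterol (HCD); cells, injection site and mouse strain were the same in both. The labels do not give age, sex or the length of feeding. They do not say that each tumour came from a different mouse either, so p-values speak only of the spread among these 6 samples, which may be technical.

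Heat shock proteins are chaperones: they bind unfolded or newly made proteins, keep them from clumping and help them fold. When unfolded proteins build up, the factor HSF1 is freed from chaperones, forms trimers and binds heat shock elements, repeats of the bases nGAAn in alternating orientation, in front of its target genes. Hspa1a and Hspa1b are the strongly inducible HSP70 genes, whereas Hspa8 and Hsp90ab1 are made at high levels in unstressed cells, and many tumours depend on HSP90 to keep signalling proteins stable.

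The libraries held 20351637 to 26228074 counts. Levels are given as CPM, counts relative to the library total scaled by TMM factors (0.979 to 1.02), and 3 counts in a library equal 0.114 to 0.147 CPM. The pigment cell markers Tyr, Dct, Mlana and Oca2 had no count in any library and the 9 pigment markers together gave 4.20 to 11.1 CPM. The 12 hepatocyte markers summed to 6480.3 to 8608.9 CPM, and 9 of them had enough counts to be tested. That sum does not show which of them carry it. The pigment levels go against the melanoma label. What the hepatocyte sum says about the cells was not tested. The summed level of skeletal muscle markers differed widely between tumours of the same diet, from 24.0 to 2162 CPM in ND and from 29.9 to 2589 CPM in HCD libraries. In bulk tissue, fewer cells of a type and less RNA per cell cannot be told apart.

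Hspa1a and Hspa1b lie next to each other on chromosome 17 (GRCm38, minus strand, 34969190 to 34972156 and 34956436 to 34959238) and are nearly the same gene: 1918 of 1926 aligned coding bases were identical (99.6%). The likeness runs on into the bases before the start site. The 250 bases before the start of each are shown because the pair can hardly be told apart there either, and those of Hspb1 because it varied most between libraries. The sequences are those of RefSeq (GRCm38.p6), written 5′ to 3′ on the strand of the gene, with capitals marking a paired heat shock unit, GAANNTTC. They are the windows chr17:34972157-34972406 (minus strand), chr17:34959239-34959488 (minus strand) and chr5:135887669-135887918 (plus strand).
Hspa1a: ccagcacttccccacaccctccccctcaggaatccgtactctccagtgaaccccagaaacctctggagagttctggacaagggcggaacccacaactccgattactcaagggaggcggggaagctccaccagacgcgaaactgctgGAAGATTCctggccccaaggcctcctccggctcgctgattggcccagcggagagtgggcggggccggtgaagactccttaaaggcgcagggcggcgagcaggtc
Hspa1b: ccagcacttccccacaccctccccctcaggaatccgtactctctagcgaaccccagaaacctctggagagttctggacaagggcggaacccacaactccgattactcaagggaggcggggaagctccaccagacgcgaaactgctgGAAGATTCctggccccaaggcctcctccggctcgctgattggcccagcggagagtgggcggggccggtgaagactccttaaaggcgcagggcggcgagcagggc
Hspb1: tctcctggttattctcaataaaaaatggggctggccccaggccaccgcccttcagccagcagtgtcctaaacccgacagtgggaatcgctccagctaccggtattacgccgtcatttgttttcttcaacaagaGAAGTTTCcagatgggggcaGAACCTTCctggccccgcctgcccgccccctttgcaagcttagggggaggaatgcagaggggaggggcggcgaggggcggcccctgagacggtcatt
Counted from 1 at the first base shown, Hspa1b differed from Hspa1a by C44T, T47C and T249G, none of them inside the marked unit.

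Both ways of pairing the unit, GAANNTTC and TTCNNGAA, were searched in the 250 bases before each RefSeq start site. Each reads the same on both strands, and matches were allowed to overlap. RefSeq windows were given for 6 of the 10 genes and not for Hspa8, Hsp90aa1, Hsp90ab1 and Hsf1. A match was found for 5 of these 6 genes and in 6 of their 9 windows. Over all genes 12.8% of 32851 windows held one, as did 3932 of 27025 genes in any of their windows. Hspa1a and Hspa1b are near copies and the windows of Hsph1 overlap, so these matches are not separate. In Hspa1a and Hspa1b the match began 104 bases before the start site, in Hspb1 117 and 97 bases before it, and in Hsph1 33 bases before the outermost start. One of the windows of Hspd1 held 3 overlapping matches, 144 to 134 bases before its start, and the windows of Dnajb1 held none of these letters. The matches of Hsph1 and Hspd1 lay within annotated exons, as did all 250 bases of that Hspd1 window. Those of Hspa1a, Hspa1b and Hspb1 lay outside annotated exons. A match is a description of the letters and was not tied to binding by any measurement here.

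**Figure D1:**
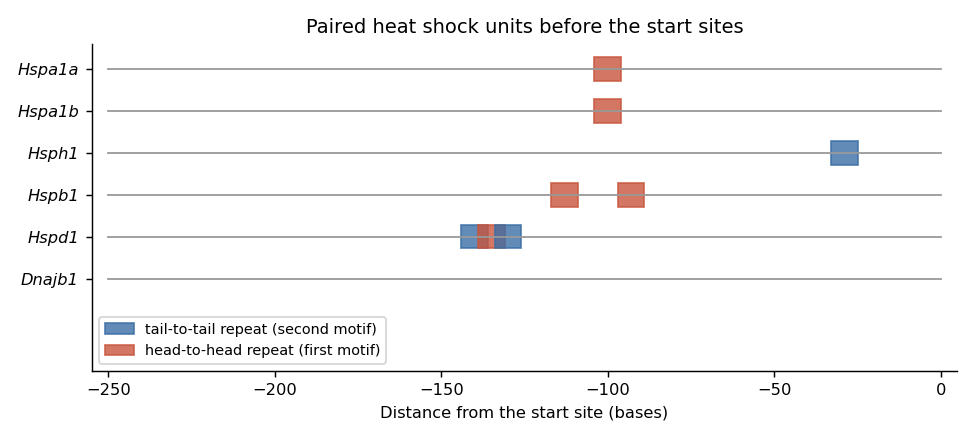
Positions of the paired heat shock units (boxes of 8 bases; red for GAANNTTC, the first motif of the legend, blue for TTCNNGAA, the second) in the 250 bases before a start site (0 on the horizontal axis) for the 6 genes with a RefSeq window, the window with a match being drawn where a gene has several. Hspa1a and Hspa1b carry a match at the same place, Hspd1 has 3 that overlap and Dnajb1 none. The matches of Hsph1 and Hspd1 lie within annotated exons.

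The close copies bear on how reads were counted. The labels give no read length, so stretches of 100 and of 50 bases were compared as assumed lengths. Of all stretches of 100 bases in the transcripts of Hspa1a, 56.5% also occurred in transcripts of another gene (GENCODE M21), most of them in Hspa1b, and for Hspa1b the share was 49.9%. Shares for the others were 44.0% for Hspb1, 38.0% for Hsp90aa1, 28.5% for Hspa8 and 23.9% for Hspd1, mainly with processed pseudogenes, and 0% for Hsph1, Hsp90ab1, Dnajb1 and Hsf1. With stretches of 50 bases the shares were between 39.4% (Hspa8) and 66.3% (Hspa1a) for the 6 genes above 0, with 42.1% for Hspd1, and were 3.44% for Hsp90ab1, 0.412% for Dnajb1 and 0% for Hsph1 and Hsf1. The copies of Hspb1, Hsp25-ps1 and Gm9817, had 0 and 1 counts in all. What was done with reads matching several places is not given in the sources used here, so the levels of the 6 genes with shared stretches of 100 bases are uncertain, and the split between Hspa1a and Hspa1b most of all. Gm26825, annotated as a noncoding gene, shared 26.3% of the stretches of Hspa8 and held 16479 counts in all 6 libraries against 212232 for Hspa8 (7.76% as many). Exons of Hspa1a overlap Gm20481, exons of Hspd1 overlap Hspe1, which is transcribed the opposite way, and small nucleolar RNA genes lie inside Hspa8.

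Per unit of length, Hsp90ab1 was the most abundant and Hspa1a the least abundant of the 10. On the deposited FPKM scale (counts relative to gene length and library total), Hsp90ab1 averaged 388 ± 14.8 (SD, n = 6), Hspd1 334 ± 30.8, Hspa8 178 ± 10.4 and Hsp90aa1 92.2 ± 8.19. Dnajb1 followed at 29.5 ± 3.37, Hsf1 at 20.6 ± 2.01, Hsph1 at 20.02 ± 4.26, Hspb1 at 3.47 ± 3.58, Hspa1b at 1.34 ± 0.551 and Hspa1a at 0.634 ± 0.252. The ranges over the 6 libraries overlapped for the neighbours Hsf1 and Hsph1, Hspb1 and Hspa1b, and Hspa1b and Hspa1a. The inducible HSP70 pair stood far below the constitutive Hspa8 in every tumour.

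The order depended on the gene length behind the FPKM values. That length was 9084 bases for Hspa8, 11284 for Hsph1, 1833 for Hspb1 and 2018 for Hsf1, where all annotated exons in GENCODE M21 cover 4301, 7266, 1031 and 7099 bases. With CPM per kilobase of these exons, Hspa8 (376 ± 17.5) came before Hspd1 (352 ± 30.9, SD, n = 6), with overlapping ranges, Hsph1 (31.1 ± 6.22) before Dnajb1 (20.9 ± 2.35), and Hspb1 (6.12 ± 6.22) before Hsf1 (5.84 ± 0.504). The ranges of Hsph1 and Dnajb1 and those of Hspb1 and Hsf1 overlapped too, and Hspb1 lay above Hsf1 in only 2 of 6 libraries. Hsp90ab1, at 749.8 ± 29.9, stayed first and Hspa1a last. This second scale was chosen after the data were seen.

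The next comparison asked whether the heat shock chaperones differed between the diets. None of the 10 genes was called higher or lower in HCD tumours by edgeR's quasi-likelihood test (0 of 10 at an adjusted p under 0.05, with 0% of all 15539 tested genes called in either direction), none had an unadjusted p under 0.05 (5.3% of all genes did, with 1.81% of all genes higher) and DESeq2 called none of them (0.00404% of its genes higher and 0.0242% lower). All 10 fold changes were positive, with a median log2 fold change of 0.10. Over all tested genes 53% were positive and the median was 0.01. The 10 genes were measured in the same 6 libraries, so they are not separate observations. For 0 of them did all 3 HCD libraries lie above all 3 ND libraries in CPM, which held for 4.75% of all genes, and for 0 of them all below (6.36% of all genes in CPM, 6.04% in FPKM). The summed level of the 10 was 5465, 5801 and 5615 CPM in ND 1 to ND 3 and 5812, 5946 and 5840.2 CPM in HCD 1 to HCD 3, so the HCD sums began just above the highest ND sum. That order depended on the TMM factors: as a share of all counts, HCD 3 (0.573%) lay below ND 2 (0.584%). Hsp90ab1, Hspa8, Hspd1 and Hsp90aa1 carry most of the sum (means of 2249, 1617, 929 and 606 CPM). It therefore says little about the remaining genes.

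**Figure D2:**
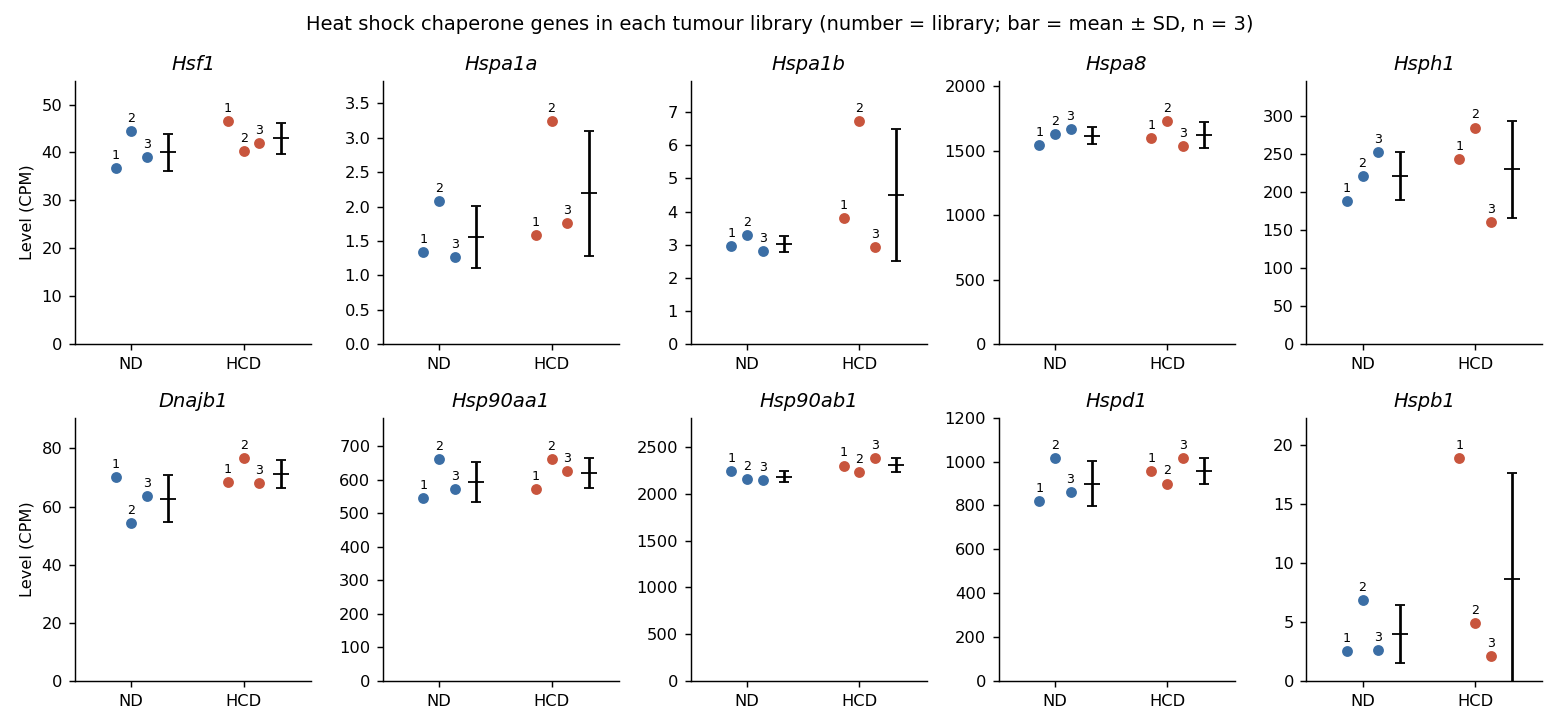
Level of each of the 10 genes in CPM (vertical axes from 0, each with its own scale) in the 3 ND (blue) and 3 HCD (red) libraries; numbers are the library numbers, bars the mean ± SD of a diet, and the lower end of the Hspb1 HCD bar runs below 0. The diets overlap in every panel; HCD 2 stands high for Hspa1a and Hspa1b, and HCD 1 for Hspb1.

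Hsf1, which encodes the master regulator of the response (ENSMUSG00000022556, chromosome 15, 76477422 to 76501913), had 36.8, 44.4 and 39.0 CPM in ND 1 to ND 3 and 46.5, 40.2 and 42.1 CPM in HCD 1 to HCD 3. The highest library was HCD 1 and ND 2 lay above the remaining HCD libraries. Its log2 fold change was 0.10 ± 0.10 SE (95% interval -0.14 to 0.34, edgeR adjusted p = 0.865).

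Of the inducible HSP70 genes, Hspa1b (ENSMUSG00000090877) had 2.95, 3.29 and 2.82 CPM in the ND libraries, from 58 to 87 counts, and 3.81, 6.72 and 2.93 CPM in HCD 1 to HCD 3, from 60 to 139 counts. Hspa1a (ENSMUSG00000091971) had 1.34, 2.08 and 1.26 CPM in ND 1 to ND 3 and 1.59, 3.24 and 1.76 CPM in HCD 1 to HCD 3, with only 26 to 67 counts a library. In both genes HCD 2 was highest and the remaining HCD libraries fell within or close to the ND range. The log2 fold changes were 0.57 ± 0.33 SE for Hspa1b and 0.48 ± 0.38 SE for Hspa1a (edgeR adjusted p = 0.839 and 0.842). Added together as if they were a single gene, the pair had 4.29, 5.38 and 4.08 CPM in ND, against 5.41, 9.96 and 4.68 CPM in HCD libraries, a log2 fold change of 0.54 ± 0.32 SE (95% interval -0.21 to 1.29, adjusted p = 0.838). Without HCD 2 the fold changes were 0.16 for Hspa1b and 0.10 for Hspa1a, the lowest when leaving out a library. The highest were 0.80 for Hspa1b without HCD 3 and 0.75 for Hspa1a without ND 2.

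HCD 2 was also the highest library for markers of several host cell types, but not of all. T cell markers (11 of 11 tested) summed to 169 CPM in HCD 2, against 22.9 to 100.2 CPM in ND and 69.5 to 115 CPM in the other HCD libraries. Macrophage markers summed to 1576 CPM there (490.5 to 997 CPM in ND, 724 and 942 CPM in the other HCD libraries) and endothelial markers to 444 CPM (216 to 259 CPM in ND, 243 and 263 CPM). Neutrophil markers summed to only 97.0 CPM in HCD 2, against 110 to 197 CPM in ND libraries. Fibroblast markers were highest in ND 1, at 4040 CPM against 3743 CPM in HCD 2. None of the macrophage, T cell or endothelial markers found in the table was without counts, and the part of these cells in the Hspa1a and Hspa1b levels was not tested.

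Hspa8, the constitutive HSP70 gene (ENSMUSG00000015656, chromosome 9, 40800984 to 40810087), was among the steadiest: 1544, 1631 and 1669.9 CPM in ND 1 to ND 3 and 1596, 1728 and 1533 CPM in HCD 1 to HCD 3. Its log2 fold change was 0.0036 ± 0.07 SE, with a 95% interval of -0.17 to 0.18 and an edgeR adjusted p of 0.991. The sign turned without ND 1 (-0.03) or HCD 2 (-0.04). Adding the counts of Gm26825 to those of Hspa8 gave 0.0052. Hspa4, another HSP110 family gene, had 311 ± 14.9 CPM in ND, against 319 ± 12.1 CPM in HCD tumours.

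Hsph1 encodes the HSP110 protein, a nucleotide exchange factor that restarts the HSP70 cycle (ENSMUSG00000029657, chromosome 5, 149614287 to 149636376). It had 189, 222 and 253 CPM in ND 1 to ND 3 and 244, 285 and 161 CPM in HCD 1 to HCD 3. The HCD group held both the highest and the lowest library. The log2 fold change was 0.06 ± 0.21 SE (95% interval -0.44 to 0.56, adjusted p = 0.959 by edgeR). Leaving out a library gave -0.05 (ND 1), -0.12 (HCD 2) or 0.26 (HCD 3). Over the 6 libraries Hsph1 and Hspa8 followed each other most closely of all 45 pairs of the 10 genes (Pearson r = 0.91, Spearman rho = 0.94), where the median r of the pairs was 0.22, from -0.61 to 0.91. All these pairs share libraries and depth.

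Dnajb1 encodes the J-domain protein that hands substrates to HSP70 (ENSMUSG00000005483, chromosome 8, 83608193 to 83612653). It had 70.2, 54.2 and 63.7 CPM in ND 1 to ND 3 and 68.6, 76.8 and 68.0 CPM in HCD 1 to HCD 3. ND 2 was the lowest library and ND 1 lay above HCD 1 and HCD 3. The log2 fold change was 0.18 ± 0.11 SE (95% interval -0.07 to 0.44, edgeR adjusted p = 0.839). Leaving out ND 2 gave 0.09, and leaving out ND 1 gave 0.27.

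The HSP90 genes had narrow intervals around a fold change near 0 on the log2 scale. Hsp90ab1, the constitutive form (ENSMUSG00000023944, chromosome 17, 45567775 to 45573271), had 2250.5, 2159 and 2150.0 CPM in ND 1 to ND 3 and 2306, 2239 and 2387 CPM in HCD 1 to HCD 3. Here HCD 2 lay below ND 1 on the CPM scale, while on the deposited FPKM scale all 3 HCD libraries (392 to 406) lay above all 3 ND libraries (371 to 381), as was so for 5.72% of all genes. The log2 fold change was 0.08 ± 0.07 SE, with a 95% interval of -0.07 to 0.23 (edgeR adjusted p = 0.845). Hsp90aa1, the stress-inducible form (ENSMUSG00000021270, chromosome 12, 110690605 to 110702728), had 546, 661 and 573 CPM in ND 1 to ND 3 and 571, 661 and 626 CPM in HCD 1 to HCD 3. ND 2 and HCD 2 were equally high, and the log2 fold change was 0.06 ± 0.09 SE (95% interval -0.16 to 0.28, adjusted p = 0.9).

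Ratios of an inducible to a constitutive form were compared within each library, on the FPKM scale. The log2 ratio of Hsp90aa1 to Hsp90ab1 averaged -2.07 ± 0.17 for ND (SD, n = 3) and -2.09 ± 0.13 for HCD (SD, n = 3), a difference of -0.02 (exact permutation test, two-sided, p = 0.9, adjusted over the 2 ratios 0.9). That of Hspa1a plus Hspa1b to Hspa8 was -6.82, -6.58 and -7.01 in ND 1 to ND 3 and -6.53, -5.77 and -6.69 in HCD 1 to HCD 3. The difference of the diet means was 0.47 (exact permutation test, two-sided, p = 0.2, adjusted 0.4), where 3 against 3 libraries cannot give a p below 0.1. Leaving out each library in turn, that difference ran from 0.19 (without HCD 2) to 0.65 (without HCD 3). The difference of the HSP90 ratio turned positive without ND 2 (0.07) or HCD 1 (0.04).

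Hspd1 encodes HSP60, which folds proteins inside mitochondria with its lid protein, the product of Hspe1 (ENSMUSG00000025980, chromosome 1, 55077835 to 55088243). It had 821, 1017 and 860.3 CPM in ND 1 to ND 3 and 956, 900.2 and 1017 CPM in HCD 1 to HCD 3. ND 2 and HCD 3 shared the top, and the log2 fold change was 0.09 ± 0.10 SE (95% interval -0.14 to 0.32, adjusted p = 0.871 by edgeR). It was 0.03 without ND 1 and 0.19 without ND 2. Hspe1, whose exons overlap those of Hspd1, had 84.3 ± 6.66 CPM in ND, against 95.3 ± 12.6 CPM in HCD tumours (SD, n = 3 each).

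**Figure D3:**
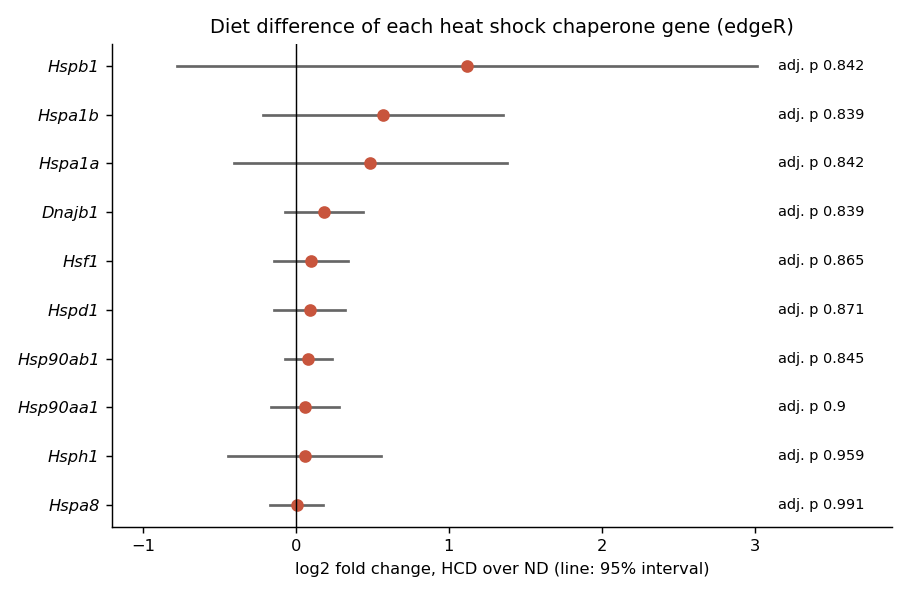
log2 fold change of HCD over ND (points) with its 95% interval (lines) and edgeR adjusted p for the 10 genes, sorted by size. Every interval includes 0; that of Hspb1 is the widest, from -0.78 to 3.01, and that of Hsp90ab1 the narrowest, from -0.07 to 0.23.

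Hspb1 encodes a small heat shock protein, also called HSP25 in mice, that holds unfolded proteins and guards the actin skeleton, and it is made in muscle as well as in stressed cells (ENSMUSG00000004951, chromosome 5, 135887919 to 135889563). It had the largest fold change of the 10 and the widest spread. Its level was 2.503, 6.82 and 2.57 CPM in ND 1 to ND 3 and 18.9, 4.93 and 2.15 CPM in HCD 1 to HCD 3, from 44 to 391 counts a library. HCD 1 stood apart, 8.80 times as high as HCD 3, which was the lowest of all 6. The log2 fold change was 1.12 ± 0.80 SE, with a 95% interval of -0.78 to 3.01 and an edgeR adjusted p of 0.842. It turned to -0.17 without HCD 1, while leaving out ND 2 gave 1.77 and leaving out both gave 0.48.

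The summed level of the skeletal muscle markers followed the same libraries. The 14 markers summed to 24.0, 2162 and 47.6 CPM in ND 1 to ND 3 and to 2589, 289.6 and 29.9 CPM in HCD 1 to HCD 3, so that HCD 1, ND 2 and HCD 2 were the highest in both, in that order. The sizes matched less well: the marker sums of HCD 1 and ND 2 were close, while Hspb1 had 18.9 and 6.82 CPM there. Among single markers, Acta1, the actin gene of skeletal muscle, had 4.43, 391 and 11.4 CPM in ND, against 631, 61.6 and 5.51 CPM in HCD libraries (Pearson r with Hspb1 0.94, Spearman rho 0.94, over 6 libraries). None of the 14 markers was without counts. Of the 13 tested, 11 had positive and 2 negative log2 fold changes, from -0.67 to 3.05. The part of muscle tissue in the Hspb1 level was not tested.

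Other small heat shock protein genes known from muscle were high in the same libraries. Cryab, which encodes alpha-B crystallin, had 1.21, 9.96 and 2.23 CPM in ND 1 to ND 3 and 25.7, 7.88 and 2.39 CPM in HCD 1 to HCD 3 (Pearson r with Hspb1 0.95). Hspb7, a gene of heart and skeletal muscle, had 0.179, 6.51 and 1.797 CPM in ND, against 34.4, 3.63 and 0.585 CPM in HCD libraries. Its log2 fold change was 2.17 ± 1.48 SE (edgeR adjusted p = 0.841). HCD 1 held 713 of its 1013 counts, and ND 1 and HCD 3 only 4 and 12. Hspb6 ranged from 8.54 to 17.8 CPM in ND and from 9.56 to 24.0 CPM in HCD libraries, again with HCD 1 and ND 2 on top. Hspb8, which works with the co-chaperone BAG3, was the most abundant at 93.2 ± 23.5 CPM in ND, against 105 ± 7.52 CPM in HCD tumours, and HCD 1 was not its highest library. Of the 10 small heat shock protein genes 6 were tested, 0 were called and 5 had positive fold changes (median 0.70), while Hspb2, Hspb3, Hspb9 and Cryaa had too few counts.

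**Figure D4:**
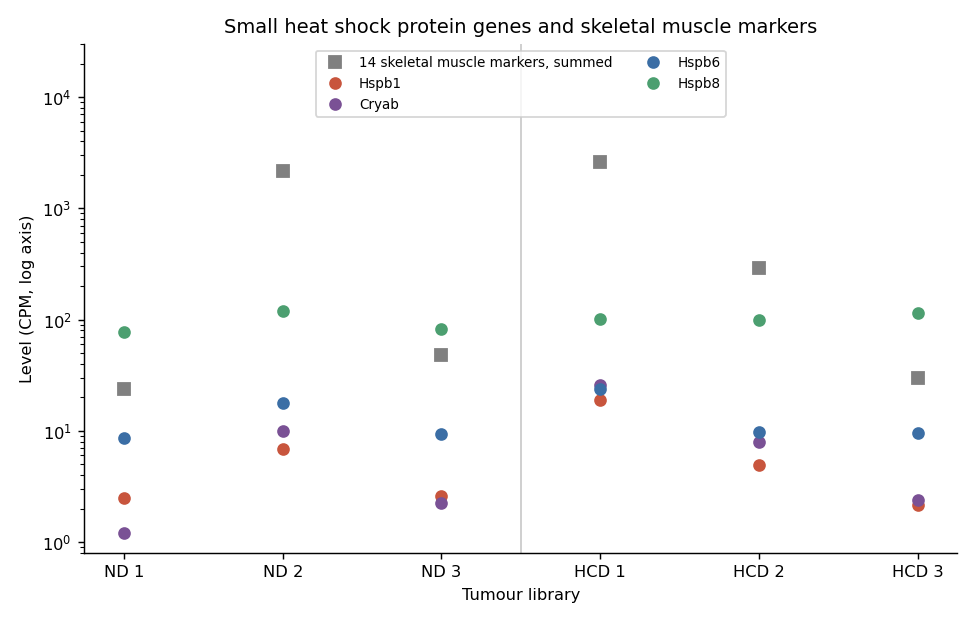
Level in CPM (log axis) of 4 small heat shock protein genes (circles) and the summed level of 14 skeletal muscle markers (squares) in each tumour library. Hspb1 and Cryab are highest in HCD 1 and next in ND 2, where the muscle markers sum to 2589 and 2162 CPM; Hspb8 varies less.

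The spread within a diet differed among the 10 genes. Ranked among all tested genes by the standard deviation of log2 CPM within a diet, Hspb1 lay at the 98.2 percentile, Hspa1a at 81.8, Hspa1b at 79.9 and Hsph1 at 72.2. Hsp90ab1 lay at 2.19 and Hspa8 at 12.7, and Hsf1, Hsp90aa1, Hspd1 and Dnajb1 between 34.3 and 43.3. Counting error adds to the spread of the low genes Hspa1a, Hspa1b and Hspb1. By library, HCD 2 was the highest for 5 of the 10 (Hsph1, Hspa1a, Hspa1b, Hspa8 and Dnajb1), HCD 1 and ND 2 for 2 each and HCD 3 for 1. The matching shares over all tested genes were not computed, so these counts are not a trait of the 10. Hspa1a and Hspa1b are near copies, and Hsph1 and Hspa8 followed each other, so the 5 are not separate.

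Genes outside the chaperone lists whose pattern was most like the mean of the 10 were Phf19, Chchd5, Pdlim1, Polr3gl and Dennd4b, with Pearson r of 0.998, 0.990, 0.987, 0.987 and 0.987 over 6 libraries. Pdlim1 had 20.8, 28.6 and 23.1 CPM in ND, against 33.5, 33.7 and 24.3 CPM in HCD libraries. The mean was 0.23 in HCD 1 and 0.25 in HCD 2 (log2 CPM, centred per gene), 0.07 in ND 2 and -0.16 to -0.22 in ND 1, ND 3 and HCD 3. With 6 libraries and 15539 genes such values are a description, and Hspb1 and the Hspa1 pair weigh most in the mean.

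The wider chaperone network also held no called gene. Over 10 further lists of chaperones, co-chaperones and their regulators, edgeR called 0 genes in each, and list medians ran from -0.07 to 0.06 in all but the small heat shock protein list. The lists hold the 10 genes where these belong, so their counts of positive members are not separate from that of the 10. The list of HSF1 targets had 16 of 22 members positive and a median of 0.06 (0.01 over all genes, of which 53% were positive). Among these 22 are Hspa1a, Hspa1b, Hspa8, Hsph1, Dnajb1, Hsp90aa1, Hsp90ab1, Hspb1 and Hspd1, given above as positive. Its count therefore largely repeats theirs. Bag3, a further gene of this list, which encodes a partner of HSP70 in selective autophagy, had an unadjusted edgeR p of 0.0159. Bag3 had 50.1, 48.7 and 54.2 CPM in ND, against 58.6, 59.0 and 60.9 CPM in HCD libraries, all above the highest ND library, as was so for 4.75% of all genes, with a log2 fold change of 0.22 ± 0.07 SE and an edgeR adjusted p of 0.839.

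HSP70 genes had 7 of 12 members positive with a median of 0.01, and HSP70 partners 4 of 10 with a median of -0.02. Stip1, the adaptor between HSP70 and HSP90, had 335 ± 22.7 CPM in ND, against 308 ± 12.3 CPM in HCD tumours, and the exchange factor gene Bag1 321 ± 15.6 against 316 ± 31.1 CPM (SD, n = 3 each). Hspa13, an HSP70-like gene with the smallest p of its list, had 78.4 ± 5.77 against 70.9 ± 1.36 CPM. Among HSP90 genes and co-chaperones 14 of 20 were positive, with a median of 0.04. Ptges3, which encodes the co-chaperone p23, had 209 to 210 CPM in all 3 ND libraries and 225, 227 and 234 CPM in HCD libraries, a log2 fold change of 0.13 ± 0.05 SE (adjusted p = 0.839 by edgeR).

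J-domain genes had 11 of 17 tested members positive and a median of 0.06. Dnajb4, a relative of Dnajb1, had 49.3, 52.7 and 50.7 CPM in ND, against 57.3, 62.0 and 60.1 CPM in HCD libraries, a log2 fold change of 0.23 ± 0.07 SE (adjusted p = 0.839). Dnaja2 had 181 ± 7.19 CPM in ND, against 193 ± 7.93 CPM in HCD tumours, and Dnajc9, a histone chaperone, 69.2 ± 1.00 against 73.5 ± 4.57 CPM. Mitochondrial chaperones and proteases were positive in 9 of 11 (median 0.05), with Hspa9, the mitochondrial HSP70 gene, at 772 ± 115 against 798 ± 80.0 CPM and Hscb, of iron-sulphur cluster assembly, at 5.50 ± 0.895 against 7.15 ± 0.807 CPM. The chaperonin CCT, which folds actin and tubulin, and the prefoldins were positive in 10 of 14 (median 0.06). In that list Cct2 had 362 ± 19.0 against 380.1 ± 22.8 CPM, Cct5 610.3 ± 9.57 against 635 ± 38.7 CPM and Pfdn5 63.6 ± 5.25 against 74.6 ± 3.71 CPM.

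Like Hsf1, the other regulators were not called. Hsf2 had 18.4 ± 1.58 CPM in ND, against 19.6 ± 1.30 CPM in HCD tumours, and Hsf4 5.28 ± 0.228 against 5.36 ± 0.259 CPM (SD, n = 3 each). Hsbp1, which encodes a small protein that binds heat shock factor trimers, had 50.05 ± 3.79 against 52.0 ± 2.09 CPM, and Hsf2bp, which encodes a partner of HSF2, 2.56 ± 0.0626 against 2.18 ± 0.134 CPM. Hsf3 and Hsf5 had 9 and 18 counts over all libraries and were not tested. In this list 4 of 5 tested genes were positive, with a median of 0.06.

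**Figure D5:**
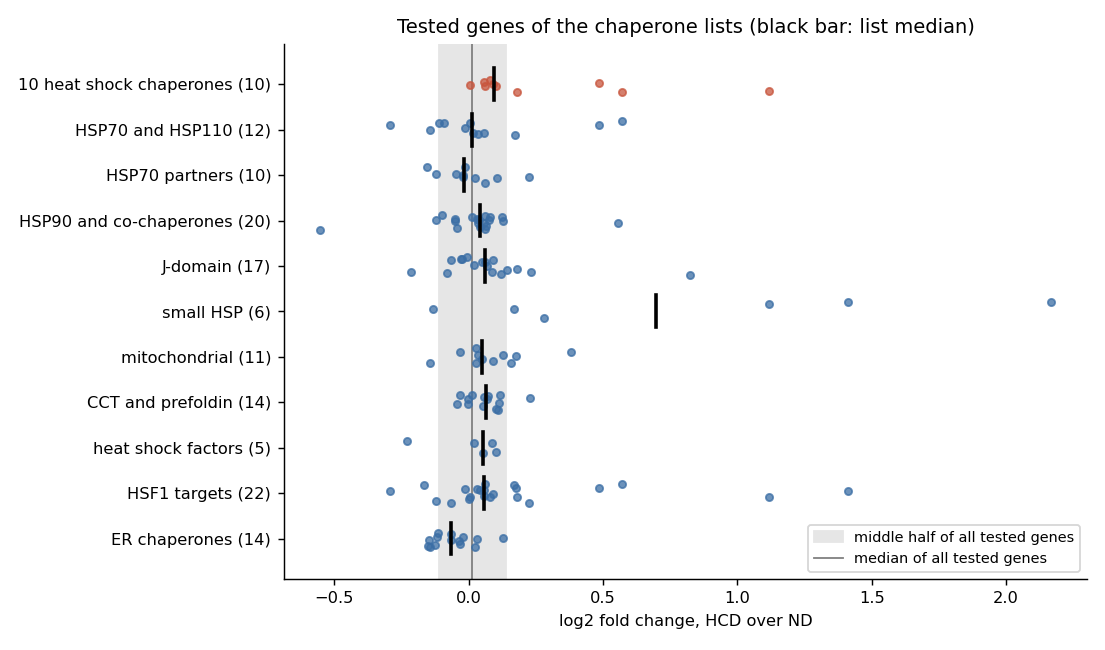
log2 fold change of HCD over ND for each tested gene (points, number tested in brackets) of the 10 heat shock chaperones (red) and of 10 further chaperone lists (blue), with list medians (black bars), the median of all 15539 tested genes (grey line) and their middle 50% (grey band, -0.11 to 0.14). Small heat shock protein genes spread farthest to the right, and ER chaperones lie mostly left of 0; genes may belong to several lists.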

How the data were processed

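RNA was measured in 6 tumours, grouped by the diet and numbered within a diet as in the labels. The authors deposited a raw read count and an FPKM value of every gene in each library. The submitters' processing notes list mm10, CASAVA 1.8, TopHat2 2.0.9, HTSeq and edgeR without saying what each did. The sources used here do not state the annotation release, the strand setting or what was done with multiply matching reads. Each deposited FPKM was the count over the product of library total and a length constant for that gene.

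Counts of all 34745 genes were filtered (edgeR 4.0.16 default, minimum count 10, minimum total 15), scaled by TMM and tested for the diet with the quasi-likelihood F-test in its legacy form (R 4.3.3), with Benjamini-Hochberg adjustment over the 15539 genes kept and a threshold of 0.05. Log2 fold changes use a prior count of 0.125, log2 CPM a prior count of 2, and intervals are 95% intervals. Each SE is the fold change over the root of its F statistic. The procedure was tested on simulated data with the same spread for every gene, which does not show how it performs for genes as variable as Hspb1. Ratios were compared by exact permutation tests (SciPy 1.17.1). Alternatives were other size factors and filters, adjusted deviances, DESeq2 1.42.0, limma 3.58.1 (voom, and log2 FPKM with pseudocounts of 1 and 0.1), the replicate number as a block, and leaving out libraries. After the data were seen, levels per exon length, counts of genes that share their sequence added to them, sums as shares of all counts, and a fit without HCD 1 and ND 2 were added.

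The 10 genes and the lists were chosen with earlier results of these data known. From each further list the text names genes by a rule: those called, or else those with the highest mean FPKM (a pair) and the smallest p. Hspb6, Hspe1, Hsf2, Hsf4, Hspa5, Gm26825, the muscle marker Acta1 and the immediate early genes fall outside that rule and were named after their values were seen. A result that this rule would name is not reported here. Coordinates, exon overlaps and transcripts are those of GENCODE M21 (GRCm38, the same assembly as mm10), and identity of the Hspa1 coding bases is from a global alignment (Biopython 1.88). Shared stretches were compared on both strands.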

Additional observations from a re-analysis of the deposited data

How the results depend on the processing

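Over all 183 combinations of a gene and an alternative, the fold changes of the 10 genes kept their sign in 177, turned in 6 and passed the threshold in 0, with a smallest adjusted p of 0.601. Leaving out each library in turn, the log2 fold change ran from -0.12 to 0.26 for Hsph1, from -0.0404 to 0.0400 for Hspa8 and from -0.17 to 1.77 for Hspb1, and the difference of the log2 ratio of Hsp90aa1 to Hsp90ab1 from -0.0942 to 0.0730. With upper quartile factors Hspa8 was at -0.0032. The cause of these turns was not tested. The number of genes called over the whole table was 0 in all 6 libraries, 0 to 2 when leaving out a library (2 without ND 2), and 7 by the DESeq2 Wald test (1 higher, 6 lower), none of them among the 10. Hspa1a was left out by the FPKM filter and has no value there. With the replicate number as a block 0 genes were called and all 10 fold changes were positive. Same-numbered tumours deviated from their diet means with correlations of -0.31, 0.14 and 0.08, and no library correlated best with its own number, so the numbers were not taken as pairs. Depth limits Hspa1a, Hspa1b and Hspb1, whose lowest libraries held 26, 58 and 44 counts.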

Other observations

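Chaperones of the endoplasmic reticulum, which answer to the unfolded protein response and not to HSF1, had 3 of 14 members with positive fold changes and a median log2 fold change of -0.07, and 0 were called by edgeR, with 0 at an unadjusted p under 0.05. Their summed level was 5501, 5119 and 5086 CPM in ND 1 to ND 3 and 5062, 4926 and 4917 CPM in HCD 1 to HCD 3, so that the highest HCD sum lay just below the lowest ND sum. That order depended on the TMM factors: as a share of all counts, HCD 1 (0.515%) lay above ND 3 (0.508%). Pdia4, a disulphide isomerase gene, had 254 ± 12.6 CPM in ND, against 229 ± 14.2 CPM in HCD tumours, and Hspa5, the HSP70 gene of this compartment, 985 ± 91.2 against 891 ± 24.4 CPM (SD, n = 3 each). Pdia3 had 1028 ± 37.1 against 982 ± 18.4 CPM and Calr 674 ± 10.7 against 689 ± 27.1 CPM.

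Immediate early genes, which respond to handling and stress, had 5 of 13 members positive, a median of -0.01 and 0 called, with 1 (Ier3, named after its value was seen) at an unadjusted p under 0.05 (5.3% of all genes). Ier3 had 63.9 ± 23.4 CPM in ND, against 39.3 ± 9.64 CPM in HCD tumours, or -0.70 ± 0.30 SE as a log2 fold change (edgeR adjusted p = 0.839). Fos had 27.5 ± 4.90 CPM in ND, against 29.3 ± 5.04 CPM in HCD tumours, and Egr1 192 ± 19.7 against 204 ± 52.6 CPM (SD, n = 3 each).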
